A study of Homo sapiens with 24 samples.

Results

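The core circadian clock genes are 10 human genes: CLOCK, BMAL1, NPAS2, PER1, PER2, PER3, CRY1, CRY2, NR1D1 and NR1D2. They were taken by name from 20033 protein-coding genes on chromosomes 1 to 22, X and Y, and each was counted as carrying Myc when a deposited Myc peak reached within 1 kb of either end of its RefSeq span. Myc binding was measured by CUT&Tag, which uses an antibody to direct a DNA-cutting transposase to the protein, so that the tagged fragments pile up where it sat. MIA PaCa-2 cells, a human pancreatic carcinoma line, were used, carrying a Tet-On construct that makes MED30 when doxycycline is given. MED30 belongs to Mediator, which links transcription factors to RNA polymerase II. Of the 24 samples in the series, 2 were used: 1 Myc library from cells without doxycycline and 1 from cells whose title gives 5 days of doxycycline, where the shared protocol speaks of 2 days. Both libraries come from cells with the construct, and the labels do not say whether these were a clone or a pool. The series asks how added MED30 influences the binding of other factors.

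The circadian clock is a feedback loop of transcription. CLOCK, or its paralogue NPAS2, pairs with BMAL1 and binds E-boxes, of which CACGTG is the canonical form, to activate the period, cryptochrome and REV-ERB genes. Period and cryptochrome proteins then return to the nucleus and shut this activation off, while the REV-ERB receptors (NR1D1 and NR1D2) repress BMAL1. Myc with its partner MAX is also a basic helix-loop-helix dimer that binds CACGTG and related E-boxes, the same kind of site that CLOCK and BMAL1 bind.

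The promoters of 6 of the genes are shown because they carry the comparison of Myc peaks with E-boxes below. Each is a RefSeq window in GRCh38.p14 (hg38) from 250 bases before to 50 after a listed start, read 5′ to 3′ along the gene. Capitals mark the E-box forms searched on either strand, which were the canonical CACGTG as well as the variant CACGCG as well as the variant CATGTG.
PER3 (chr1:7784041-7784340, plus strand): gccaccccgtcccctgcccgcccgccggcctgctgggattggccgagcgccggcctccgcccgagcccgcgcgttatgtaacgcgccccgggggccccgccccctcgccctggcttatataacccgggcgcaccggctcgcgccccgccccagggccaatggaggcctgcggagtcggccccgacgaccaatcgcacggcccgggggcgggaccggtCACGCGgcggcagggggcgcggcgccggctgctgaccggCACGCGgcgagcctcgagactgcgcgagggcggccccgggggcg
CRY1 (chr12:107093500-107093799, minus strand): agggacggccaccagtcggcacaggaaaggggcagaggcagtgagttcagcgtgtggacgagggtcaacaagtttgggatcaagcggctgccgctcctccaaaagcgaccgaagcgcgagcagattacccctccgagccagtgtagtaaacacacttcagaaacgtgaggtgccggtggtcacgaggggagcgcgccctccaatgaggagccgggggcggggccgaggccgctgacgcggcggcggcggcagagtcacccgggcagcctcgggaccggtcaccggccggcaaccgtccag
NR1D1 (chr17:40100540-40100839, minus strand): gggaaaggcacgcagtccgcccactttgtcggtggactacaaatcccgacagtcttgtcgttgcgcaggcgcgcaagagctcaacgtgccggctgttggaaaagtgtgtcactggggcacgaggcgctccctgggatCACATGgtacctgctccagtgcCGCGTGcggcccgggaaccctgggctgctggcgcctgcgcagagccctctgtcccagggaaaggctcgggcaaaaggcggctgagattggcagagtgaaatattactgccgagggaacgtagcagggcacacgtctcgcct
NR1D2 (chr3:23945871-23946170, plus strand): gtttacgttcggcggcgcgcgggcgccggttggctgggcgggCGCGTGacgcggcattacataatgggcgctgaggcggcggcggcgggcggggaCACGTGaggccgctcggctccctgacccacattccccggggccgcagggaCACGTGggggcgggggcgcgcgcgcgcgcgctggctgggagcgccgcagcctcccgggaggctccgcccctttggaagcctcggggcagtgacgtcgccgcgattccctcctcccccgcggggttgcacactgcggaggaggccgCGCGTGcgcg
CRY2 (chr11:45847225-45847524, plus strand): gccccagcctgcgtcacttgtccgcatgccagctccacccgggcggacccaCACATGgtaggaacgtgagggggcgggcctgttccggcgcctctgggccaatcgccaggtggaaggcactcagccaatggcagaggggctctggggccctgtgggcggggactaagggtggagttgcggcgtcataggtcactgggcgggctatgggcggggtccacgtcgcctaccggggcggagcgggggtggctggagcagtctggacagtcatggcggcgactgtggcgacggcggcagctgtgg
PER1 (chr17:8152355-8152654, minus strand): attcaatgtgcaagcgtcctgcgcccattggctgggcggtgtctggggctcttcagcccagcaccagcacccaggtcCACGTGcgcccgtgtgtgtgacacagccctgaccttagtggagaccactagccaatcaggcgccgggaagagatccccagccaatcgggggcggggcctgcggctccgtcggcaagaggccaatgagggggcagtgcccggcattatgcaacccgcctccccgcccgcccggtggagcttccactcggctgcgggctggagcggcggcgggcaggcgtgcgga
PER3, CRY1 and NR1D1 had Myc peaks reaching these windows in both libraries, and NR1D2 and CRY2 at day 5. PER1 holds a CACGTG but had no Myc peak over its window.

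The list without doxycycline held 3472 peaks on these chromosomes, with a median of 11 fragments over the summit, and the day 5 list held 6727, with a median of 12. The lists carry no read totals, so the depth behind a value is its number of summit fragments, given below with exact Poisson 95% intervals that cover counting error only. With 1 library per condition there is no replicate check and no test, and every difference is one between these libraries. No IgG library was subtracted here, and a gene without a listed peak may still have held Myc below the authors' threshold. As a check of the cell type, VIM, a mesenchymal intermediate filament, had a Myc peak in both libraries, and KRT8, KRT18 and KRT19, keratins of epithelial cells, had none. None of PRSS1, CPA1, INS, PTPRC, CD3E and ALB, markers of acinar, endocrine, blood and liver cells, had one, though Myc peaks do not measure expression.

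Activators, repressors and REV-ERB genes were all among the clock genes with a Myc peak in these lists, although not under every stricter rule. Without doxycycline 5 of the 10 genes had a peak, namely BMAL1, PER1, PER3, CRY1 and NR1D1 (50%, exact Clopper-Pearson 95% interval 18.7 to 81.3), where 14.4% of all protein-coding genes had one. At day 5 the number was 7, namely NPAS2, PER1, PER3, CRY1, CRY2, NR1D1 and NR1D2 (70%, 34.8 to 93.3), beside 27.4% of all genes. Both intervals lie above the share of all genes, which were matched to the clock genes in neither activity nor promoter composition. The clock genes were also chosen with earlier results of these data known, so this comparison is a description and not a test. PER1, PER3, CRY1 and NR1D1 were listed in both libraries, 4 of 10 beside 12.9% of all genes. NPAS2, CRY2 and NR1D2 were listed only at day 5, 3 of 10 beside 14.5%, and BMAL1 only without doxycycline, 1 of 10 beside 1.57%. CLOCK and PER2 were marked in neither library, 2 of 10 beside 71.1%.

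By role, 1 of the 3 activators was listed in each library, and not the same gene, beside 14.4% and 27.4% of all genes. No activator was listed at day 5 with a 500 bp window or with the summit required in the window. Nor was one listed there with a −log10 q of at least 5 or with equal numbers of peaks. Without doxycycline the 500 bp window and the summit requirement each left BMAL1, PER3, CRY1 and NR1D1, so all 3 roles remained. These were 4 of 10 genes, beside 13.4% and 13.9% of all genes. With a −log10 q of at least 5 the clock genes left without doxycycline were PER1, PER3 and CRY1, beside 8.65% of all genes. No activator and no REV-ERB gene was among them. Of the 5 period and cryptochrome genes, 3 were listed without doxycycline and 4 at day 5, PER1 included in both. Of the 2 REV-ERB genes 1 and then 2 were listed. These roles hold few genes, stand beside the same 14.4% and 27.4%, and were not tested. The excess over all genes rested on few genes. With PER1 counted as unmarked, since its peak lay at its far end (below), the counts were 4 (12.2 to 73.8) and 6 (26.2 to 87.8), and both intervals hold the share of all genes. When the day 5 list was cut to as many peaks as the other list holds, 4 clock genes (12.2 to 73.8) were listed, beside 15.7% of all genes, namely PER3, CRY1, NR1D1 and NR1D2.

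**Figure D1:**
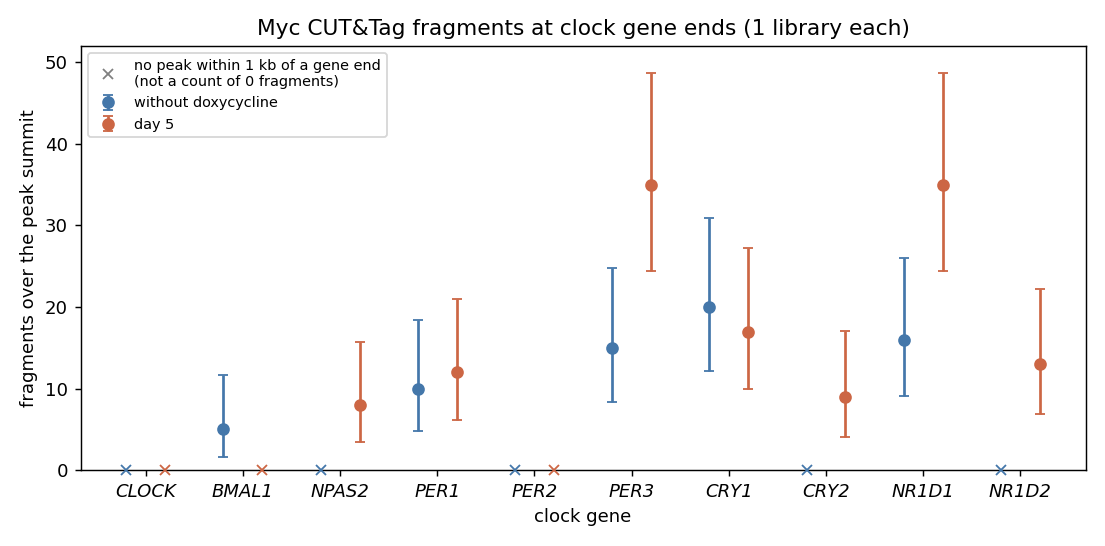
Fragments over the summit of the highest-ranked Myc peak within 1 kb of an end of each clock gene, without doxycycline (blue) and at day 5 (orange), with exact Poisson 95% intervals; a cross marks a gene with no such peak. PER3 and NR1D1 reached 35 fragments at day 5, and CRY1 had 20 and 17. CLOCK and PER2 had no peak within 1 kb of an end in either library, though PER2 had a day 5 peak near its listed start.

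Among clock genes with a peak at an end, the listed activator had the fewest fragments in each library, though the intervals overlap those of others. Activators were not alone in lacking such a peak. PER2, CRY2 and NR1D2 had none without doxycycline, and PER2 had none at day 5. The day 5 peak of PER2 near its start (below) held 8 fragments, as many as that of NPAS2. CLOCK, the histone acetyltransferase and DNA-binding partner of BMAL1 (chromosome 4, span 55427903 to 55546909 in hg38), had no peak over its span. Its nearest peak lay 888 kb away without doxycycline. At day 5 it lay 32.0 kb beyond the far end of CLOCK, beside an end of TMEM165, a Golgi membrane protein gene, and held 13 fragments. BMAL1 (chromosome 11, span 13276652 to 13387266) had a peak at 13277069 to 13277441 without doxycycline, with 5 fragments (1.62 to 11.7) and an authors' −log10 q of 3.17. This peak lay between the gene's listed starts, with its summit 536 bp before the downstream start. It held the fewest fragments of any peak listed at a clock gene end, and 6.70% of the 2894 genes listed without doxycycline had as few. No day 5 peak lay there, and the only day 5 peak of BMAL1 was inside the gene at 13338293 to 13338668, with 10 fragments. NPAS2, which can stand in for CLOCK (chromosome 2, span 100818723 to 100996829), had a peak only at day 5, at 100819339 to 100819875, with 8 fragments (3.45 to 15.8). Its summit was 374 bp before the listed start.

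The 3 period genes, which encode the scaffold of the repressor complex, differed in where Myc lay. PER3 (chromosome 1, span 7784291 to 7845177) had the highest-ranked clock peak at day 5. Without doxycycline the peak was at 7783525 to 7784124 with 15 fragments (8.40 to 24.7), −log10 q 9.52 and rank 767 of 3472. At day 5 it was at 7783530 to 7784226 with 35 fragments (24.4 to 48.7), −log10 q 24.2 and rank 245 of 6727. In both libraries the whole peak lay before the start, with summits 621 and 282 bp upstream, and no other gene had an end within 1 kb of it.

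PER1 (chromosome 17, span 8140472 to 8152404) was marked through its far end, not its start. Without doxycycline the peak covered 8139057 to 8139472 and held 10 fragments (4.80 to 18.4). At day 5 it covered 8139057 to 8139581 and held 12 fragments (6.20 to 21.0). It began just past the tRNA gene TRS-CGA1-1 (8138881 to 8138962). It reached into the tRNA gene TRT-AGT5-1 (8139452 to 8139525) without doxycycline and covered the whole of it at day 5. Its summits lay 13137 and 13065 bp from the PER1 start. It reached within 1000 bp of the PER1 span without doxycycline, exactly at the limit, and within 891 bp at day 5. A separate peak lay upstream of PER1 in both libraries, with its summit 4185 bp before the start and 19 fragments without doxycycline, and 4265 bp before it and 15 fragments at day 5. No annotated gene had an end within 1 kb of that peak.

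PER2 (chromosome 2, span 238244044 to 238300065) was not marked, although Myc lay near its listed start at day 5. The peak at 238288945 to 238289337 held 8 fragments, came within 335 bp of the RefSeq start at 238288610, and had its summit 485 bp upstream of that start. The span used by the marking rule runs on beyond this start, so the peak was inside the span and 10728 bp from its end. PER1 lay exactly at the limit without doxycycline. Of the unmarked clock genes there, NPAS2 came nearest, but its nearest peak began 5110 bp from its far end, beside an end of RPL31. A window of 2500 bp did not add NPAS2 without doxycycline. Without doxycycline the peak nearest PER2 lay 743 kb away. Counting peaks within 1 kb of listed starts only, a setting chosen after seeing the data, gave 4 clock genes without doxycycline and 7 at day 5, with PER2 in and PER1 out, beside 16.0% and 30.1% of 15842 genes with a listed start.

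The cryptochromes hold CLOCK and BMAL1 inactive. CRY1 (chromosome 12, span 106991364 to 107093549) carried the most fragments of any clock gene without doxycycline. That peak covered 107093587 to 107093999, with 20 fragments (12.2 to 30.9) and rank 353 of 3472. The day 5 peak covered 107093552 to 107093933, with 17 fragments (9.90 to 27.2) and rank 1309 of 6727. Its summits, 206 and 199 bp before the start, were 7 bp apart, and both fell inside the promoter window printed above. CRY2 (chromosome 11, span 45847118 to 45883244) had a peak only at day 5, at 45847315 to 45847722, with 9 fragments (4.12 to 17.1). Its summit was 4 bp before the downstream listed start, the nearest to a start of any clock gene.

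The REV-ERB receptors repress BMAL1 and bind haem. NR1D1 (chromosome 17, span 40092793 to 40100589) had a peak across its start in both libraries. Without doxycycline it was at 40100397 to 40101079, 683 bp wide, with 16 fragments (9.15 to 26.0) at a summit 330 bp before the start. At day 5 it was at 40099103 to 40101217, 2115 bp wide, with 35 fragments (24.4 to 48.7) at a summit 1276 bp inside the gene. The day 5 peak contained the whole of the other one and ran 1486 bp past the start. Of the 5484 genes listed at day 5, NR1D1 had the widest highest-ranked peak, and 3 of all 6727 peaks, itself included, were as wide, while without doxycycline 26.2% of listed genes had a peak as wide as that of NR1D1. The background around the summit was also the highest of any clock gene, 2.62 and 5.10 fragments, so the authors' fold was 4.69 and 5.90.

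NR1D2 (chromosome 3, span 23945286 to 23980617), the second REV-ERB, had a peak only at day 5. It was at 23945999 to 23946537 with 13 fragments (6.92 to 22.2) and rank 2311 of 6727, and its summit lay 212 bp past the downstream listed start. NKIRAS1, an inhibitor of NF-kappa-B signalling, ends its span at 23946562 and shares this region, so the peak cannot be given to either gene alone.

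**Figure D2:**
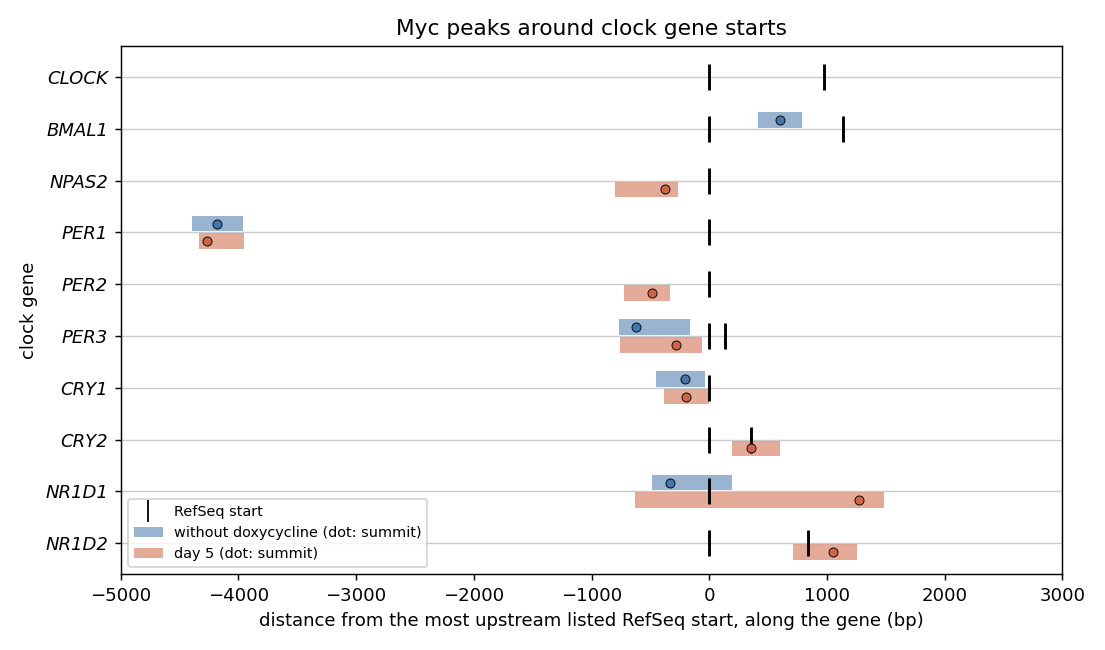
Myc peaks (bars) and their summits (dots) along each clock gene, in bp from its most upstream listed RefSeq start (black ticks mark all listed starts), without doxycycline (blue) and at day 5 (orange). The day 5 peak of NR1D1 spans 2115 bp, the PER1 peaks shown lie about 4 kb upstream of its start, and the PER1 far-end peak is outside the plotted range.

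In the 4 genes listed in both libraries, summit fragments were set beside those of all 2580 such genes. Over those genes the median ratio of day 5 to no doxycycline was 1.43 (quartiles 1.13 and 1.82), with no scaling for depth. PER3 had a ratio of 2.33 (exact binomial interval 1.24 to 4.60) and NR1D1 2.19 (1.18 to 4.23), and 9.19% and 11.8% of genes had ratios as high. The NR1D1 ratio compares summits 1606 bp apart, a shift that 1.36% of genes matched or passed. PER1 had a ratio of 1.20 (0.475 to 3.10). CRY1 had 0.850 (0.418 to 1.71), and 6.12% of genes were as low. The intervals of PER3, NR1D1, PER1 and CRY1 all hold the median of 1.43, so at this depth none was shown to differ from the genome-wide ratio.

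**Figure D3:**
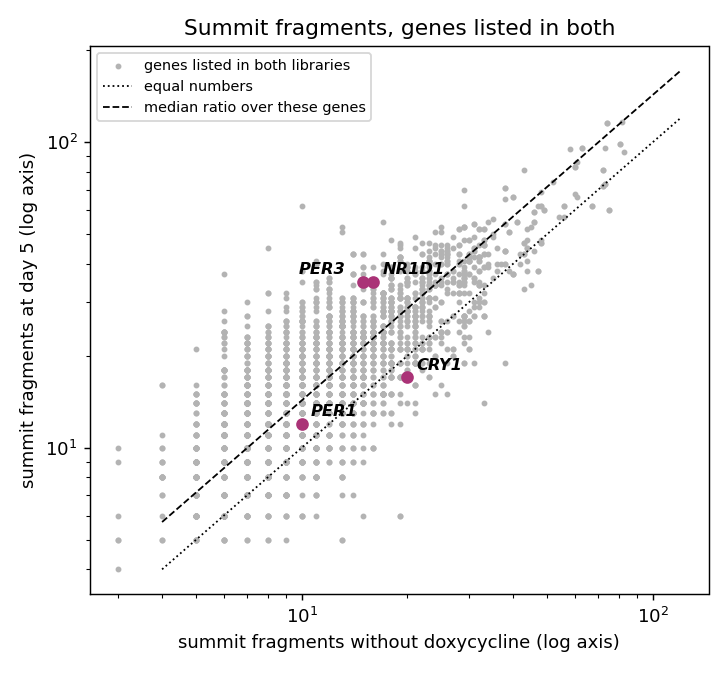
Summit fragments without doxycycline (x) and at day 5 (y), both on log axes, for 2580 genes listed in both libraries (grey) with 4 clock genes in purple; the dotted line marks equal numbers and the dashed line the median ratio of 1.43. PER3 and NR1D1 lie above the dashed line, CRY1 below the dotted line, and PER1 between the lines.

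E-box letters were found in some clock promoters with a Myc peak and in some without. CACGTG was found in the listed windows of 2 of the 10 clock genes, PER1 and NR1D2, beside 10.9% of 15842 protein-coding genes with a window. In NR1D2 it occurred at −155 and −105, counted from the start base as 1, with no base 0. The day 5 peak covered the copy at −105, 317 bp from the summit, and began past the copy at −155. The CACGTG of PER1, at −173, lay in no peak in either library. CRY1, with the most fragments without doxycycline, held none of the 3 forms in its window, which says only that these letters are not in that stretch.

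CACGCG, searched on both strands, was in windows of 4 clock genes (PER3, NR1D1, NR1D2 and CLOCK), beside 18.1% of all genes. Both copies of PER3 lay past the 3′ edge of its peaks, the copy of CLOCK was in no peak, and of the NR1D2 copies the one at 41 lay in the day 5 peak, 172 bp from its summit, and the one at −208 outside it. The CACGCG at −91 and the CATGTG at −113 of NR1D1 lay in its peak in both libraries, 244 and 222 bp from the summit without doxycycline and 1362 and 1384 bp from it at day 5. CATGTG, searched the same way, was in windows of CRY2, NR1D1 and NR1D2, 3 of 10 beside 11.5%, and the copies of CRY2 and NR1D2 lay outside the peaks. AGGTCA, the core of the REV-ERB site, was in windows of BMAL1, CRY2 and PER1, beside 15.3% of all genes. Copies of different forms that share letters were counted under each. Over all protein-coding genes, CACGTG was in 16.2% of windows overlapped by a peak without doxycycline, 13.9% of those overlapped at day 5 and 6.57% of those overlapped in neither. CACGCG had the same order, at 24.2%, 22.8% and 11.4%. The other forms were instead most frequent in windows overlapped in neither, with CATGTG at 7.16%, 6.04% and 9.90%, and AGGTCA at 9.89%, 9.34% and 12.7%. Those groups differ in base composition too, with median GC contents of 64.0%, 65.3% and 60.7%, against 71.3% over the 15 clock windows.

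A smaller share of the wider clock pathway than of the core genes had Myc peaks. Of 39 kinases, ligases, receptors, partners and output genes, 11 had a peak without doxycycline (28.2%, 15.0 to 44.9) and 16 at day 5 (41.0%, 25.6 to 57.9), beside 14.4% and 27.4% of all genes. The day 5 interval holds the share of all genes. Intervals of the core and wider lists overlap, and the difference was not tested. Among the secondary loop receptors and D-box factors, 1 of 7 had a peak in each library (14.3%), where all genes stood at 14.4% and 27.4%. That was DBP, a D-box activator and textbook target of CLOCK, with 25 fragments (16.2 to 36.9) and 44 (32.0 to 59.1), while TEF, HLF and NFIL3, the other D-box factors of the list, had none. Of 7 E-box repressors and CLOCK-BMAL1 partners, the same 2 had one in each library (28.6%, 3.67 to 71.0), beside 14.4% and 27.4% of all genes. Of all genes 12.9% had one in both libraries. The interval holds all of these shares. BHLHE40, an E-box repressor, had 16 and 23 fragments, and CIPC, a CLOCK inhibitor, 7 and 15.

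Of the 5 lists, genes acting on period and cryptochrome proteins had the highest share, with 5 of 13 without doxycycline (13.9 to 68.4) and 8 at day 5 (31.6 to 86.1), beside the same 14.4% and 27.4%. The first interval holds the share of all genes. GSK3A, a kinase, had 31 and 29 fragments and its paralogue GSK3B 9 and 16. CSNK1E, casein kinase 1 epsilon, had 16 and 13, FBXW11, a ubiquitin ligase subunit, 15 and 18, and TIMELESS, a replication fork and clock protein, 7 and 16. CSNK2A1 with 12 fragments, WDR5, a subunit of histone methyltransferase complexes, with 9, and TIPIN, the partner of TIMELESS, with 5 were listed only at day 5. Of 6 REV-ERB corepressors and ligases, 1 had a peak without doxycycline (16.7%) and 2 at day 5 (33.3%), near the share of all genes. FBXW7 had 8 and 11 fragments and NCOR1, the corepressor, 16 at day 5 only. Of 6 output genes, NAMPT, the rate-limiting enzyme of NAD salvage, had 26 and 24 fragments, and WEE1, a mitotic checkpoint kinase, had 33 at day 5 only. None of 12 other bHLH-PAS genes, the wider family of CLOCK, BMAL1 and NPAS2 (among them HIF1A, AHR and ARNT), had a peak in either library, which allows a share of up to 26.5%, above the 14.4% of all genes without doxycycline and below the 27.4% at day 5.

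**Figure D4:**
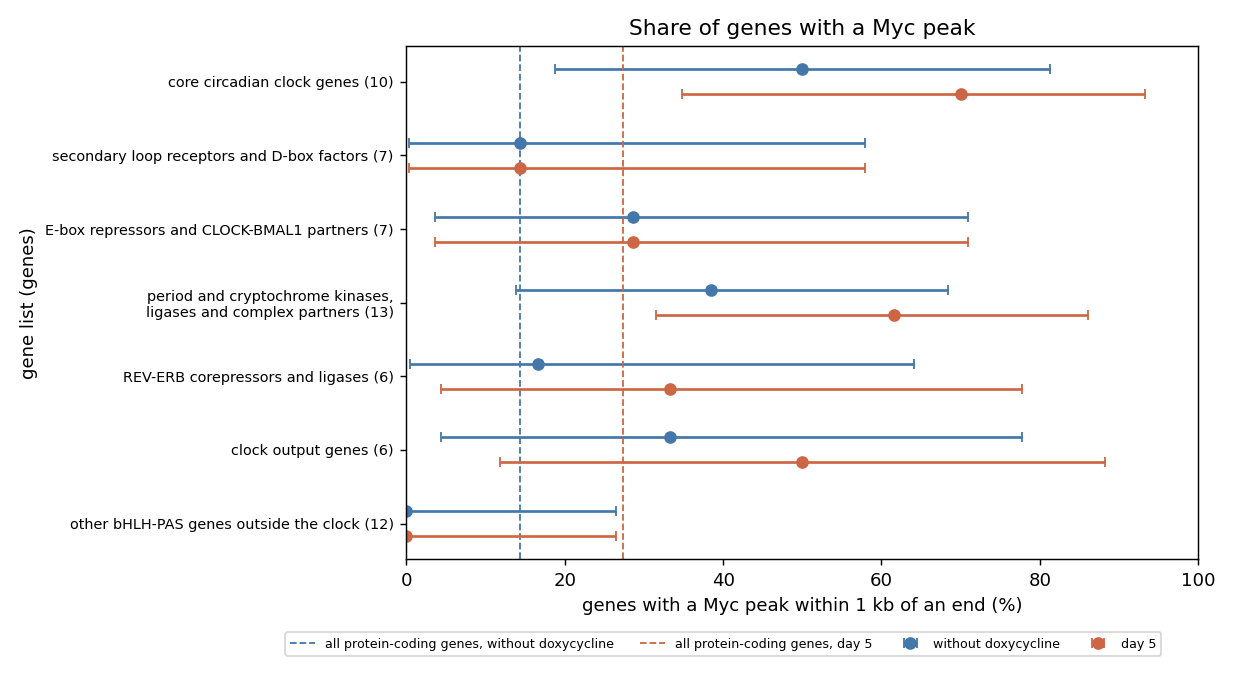
Share of each gene list with a Myc peak, by the same 1 kb rule, without doxycycline (blue) and at day 5 (orange), with exact Clopper-Pearson 95% intervals; dashed lines give all protein-coding genes, 14.4% and 27.4%. The core genes stand at 50% and 70%, the 13 genes acting on period and cryptochrome proteins at 38.5% and 61.5%, and the 12 other bHLH-PAS genes at 0.

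The genes whose peaks ranked most like those of PER3 were named by the distance between rank percentiles in the 2 libraries. PER3 stood at the top 22.1% and 3.64%, and nearest were LOC102723553 with 13 and 30 fragments, IARS1, the cytosolic isoleucyl-tRNA synthetase, with 16 and 32, and ALDH3A2, a fatty aldehyde dehydrogenase, with 17 and 40.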

How the data were processed

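Myc CUT&Tag peak lists of 2 libraries were used, 1 per condition, grouped by title. The other 22 samples were not analysed here. The submitters' processing notes name MACS2, Bowtie2, Trim Galore and deepTools with hg38, with no versions or settings. The authors deposited, per peak, a score (the integer part of 10 times −log10 q), the fold enrichment at the summit (a ratio), the −log10 p-value, the −log10 q-value and the summit offset. Peaks were called per library. Summit fragments were recovered from the deposited fold, taken as (fragments + 1)/(background + 1), and the −log10 p, taken as a Poisson tail. A whole number fitted within 0.001 for 100% of peaks in both lists. In simulated lists of 3472 and 6727 peaks 99.8% and 99.9% were recovered, and 100% of 200 planted genes were found.

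Gene spans and promoter windows came from RefSeq, GRCh38.p14; all 10 clock genes matched both tables. Exons and introns were not told apart. A gene's value is that of its highest-ranked peak by −log10 q within 1 kb of an end. The members and lists were chosen with earlier results of these data known. Named genes are the members, list genes with a peak (apart from a result not reported here), genes sharing a member's peak and the 3 nearest in rank to the highest-ranked member. Alternatives were windows of 500 and 2500 bp, summits in place of peaks, −log10 q of at least 5, equal numbers of peaks, upper parts of the lists, other overlap rules, the peak nearest the start and shorter motif windows; 1 kb around listed starts and PER1 counted as unmarked were added after seeing the data. Python 3.11.15, pandas 2.3.3, numpy 2.4.6 and scipy 1.17.1 were used.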

Additional observations from a re-analysis of the deposited data

How the results depend on the processing

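Among the alternatives tried, PER3 and CRY1 were listed in both libraries under every one. Clock genes without doxycycline numbered 3 in place of 5 with a −log10 q of at least 5, beside 8.65% of all genes. They also numbered 3 in the upper part of the list by rank, beside 8.02%. Both rules left out BMAL1 and NR1D1. At day 5 clock genes numbered 4 in place of 7 with a 500 bp window, with equal numbers of peaks and in the upper part of the list. The shares of all genes were 25.7%, 15.7% and 15.3%. When the summit itself had to lie in the window, 3 of the 10 clock genes were listed at day 5, near the 26.3% of all genes. In both libraries there were 2 in place of 4 under the summit rule and in the upper part of each list. Only at day 5 there were 1 in place of 3 with a 500 bp window, under the summit rule and with equal numbers. Over all protein-coding genes, without doxycycline 1733 (−log10 q of at least 5) and 1607 (upper part) replaced 2894, and at day 5 3618, 3148 (equal numbers) and 3070 (upper part) replaced 5484. These follow from fewer peaks by construction. CACGTG was in the windows of 1 clock gene, not 2, within the 200 bases nearest a start. The remaining 32 counts stayed within 1.5 times. Taking the peak nearest the start was no test of the 12 fragment values, since each gene had 1 peak within 1 kb of its ends. No paired analysis was possible because each condition has 1 library. Depth limits the weakest peaks, which rest on 5 to 10 fragments.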

Other observations

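The surroundings of the clock genes also held Myc peaks at other genes. Within 50 kb of NR1D1, day 5 peaks at 11.1 and 12.9 kb before its start held 16 and 26 fragments, had no counterpart without doxycycline and lay within 1 kb of no annotated gene end. CASC3, a core protein of the exon junction complex, had 10 and 17 fragments 40.0 kb upstream of NR1D1. On the other side, a day 5 peak near an end of MED24, a Mediator subunit, held 5 fragments. MED24 was listed without doxycycline too, with 13 fragments at a peak outside the 50 kb around NR1D1. Ribosomal protein genes flanked both NPAS2 and NR1D2. RPL31, 5 kb beyond the far end of NPAS2, had 10 fragments without doxycycline and 20 at day 5, and RPL15, 28.3 kb before NR1D2, had 9 and 18. Around PER1, a peak about 35 kb upstream, beside 4 tRNA genes and BORCS6, a lysosome-positioning protein, held 18 and 24 fragments. A peak at HES7, a segmentation clock repressor, 19.8 kb past the far end of PER1 and beside 4 more tRNA genes, held 19 and was listed only without doxycycline. SLC35C1, the Golgi GDP-fucose transporter, 41.8 kb before CRY2, had 18 and 21 fragments. These values were not part of the marking rule and no cause was tested.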
